A study of Homo sapiens with 16 samples.

Results

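The genes described here are 10 named components of transforming growth factor beta (TGF-beta) signalling in K562 cells: the ligands TGFB1, TGFB2 and TGFB3, the receptors TGFBR1 and TGFBR2, the signal-carrying SMAD3, the inhibitors SMAD6, SMAD7 and SKIL, and the target gene TGFBI. They were taken by name from the 35052 genes to which the deposited transcript counts could be assigned, and none was left out. All 10 were among the 17559 genes that passed the filter on low counts. K562 is an established human leukaemia line with erythroid features, used here as unmodified (wild-type) cells. The phorbol ester PMA, which activates protein kinase C, was given at 25 nM to push the cells towards a megakaryocyte-like state. RNA was sequenced before PMA (0 h) and at 7 times after it, namely early at 0.5, 1.5 and 3 h, then at 6 h, and late at 24, 48 and 72 h. Each of the 8 time points has 2 libraries, 16 in all, made from total RNA after removal of ribosomal RNA. Fresh medium was given after 24 and 48 h, so the later time points differ from the earlier ones in that too, and no untreated cells from the later times are among these libraries.

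TGF-beta ligands are made as precursors that stay bound to a latency peptide until they are released. An active ligand dimer binds the type II receptor TGFBR2, which recruits and phosphorylates the type I receptor TGFBR1, and TGFBR1 in turn phosphorylates SMAD2 and SMAD3, which enter the nucleus with SMAD4. SMAD6 and SMAD7 are inhibitory SMADs that block the receptors, SKIL (SnoN) is a nuclear repressor bound to SMAD proteins, and in many cells SMAD7 and SKIL are themselves target genes of the pathway, which makes them negative feedback components. TGF-beta is stored in platelet granules, and megakaryocytes are a known source of it.

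Library totals ranged from 27285773 to 54056289 estimated reads. Levels are given as CPM, which is a share of a library's reads after scaling with TMM factors, and as TPM, which also divides by transcript length, where genes are compared with each other. A floor of 3 reads stood for 0.0623 to 0.128 CPM. Summed levels of 8 K562 and erythroid markers were 1194 to 2316 CPM over all libraries. Those of 7 megakaryocyte and platelet markers were 58.2 and 68.1 CPM at 0 h and 5383 and 6191 CPM at 72 h. THBS1 and ITGB3 made most of that 72 h sum, at means of 4593 and 1092 CPM, and CD9 rose from 0.346 to 40.3 CPM. ITGA2B, which made most of the 0 h sum, had 57.8 CPM at 0 h, 13.1 CPM at 24 h and 61.9 CPM at 72 h. GP1BA, GP9 and PF4 of that list stayed at or near 0. Of the markers of other cell types, CD2 and MS4A1 were at or near 0 throughout, and the 3 fibroblast markers summed to 10.9 and 13.0 CPM at 0 h and 217 and 235 CPM at 72 h, of which COL1A1 made most at the later time. Values came from bulk RNA, in which fewer cells of a type and less RNA per cell cannot be told apart. Nothing in the labels says that the 2 libraries of a time point came from separate cultures, so p-values measure the spread between these libraries, which may be technical.

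Over the whole course, 9 of the 10 genes differed between time points in the quasi-likelihood test of edgeR (Benjamini-Hochberg adjusted p under 0.05, the threshold for every call below), where 82.9% of all tested genes did. TGFBR1 was the exception (adjusted p = 0.249). Against 0 h, none of the 10 was called at 0.5 h, where 0.171% of all genes were (0.165% higher and 0.0057% lower); SKIL alone was under 0.05 before adjustment in edgeR, and DESeq2 called 0. At 1.5 h, 2 were higher and 1 was lower, beside 17.1% of all genes (9.05% higher and 8.05% lower). At 3 h the count was 5 higher and 3 lower, beside 42% of all genes (21.5% higher, 20.5% lower). It was again 5 and 3 at 6 h, beside 57.2% (27.8% higher, 29.4% lower). With library totals in place of TMM factors, which moved the median of all genes by -0.35 on the log2 scale, the 6 h count was 3 higher and 4 lower. Under that scaling, 3210 of all 17559 genes were higher at 6 h and 7385 were lower. The later time points held rises alone. These were 5 genes at 24 h, beside 58.3% of all genes (31.7% higher, 26.6% lower), 7 genes at 48 h, beside 54.3% (30.2% higher, 24.1% lower), and 7 genes at 72 h, beside 58.6% (31.7% higher, 26.9% lower). The median log2 fold change of the 10 genes at 72 h was 1.34, and that of all genes -0.03. With so many genes called, the share among the 10 at 3 h and after is read against that background, and the sizes and time courses below carry more than the counts.

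**Figure D1:**
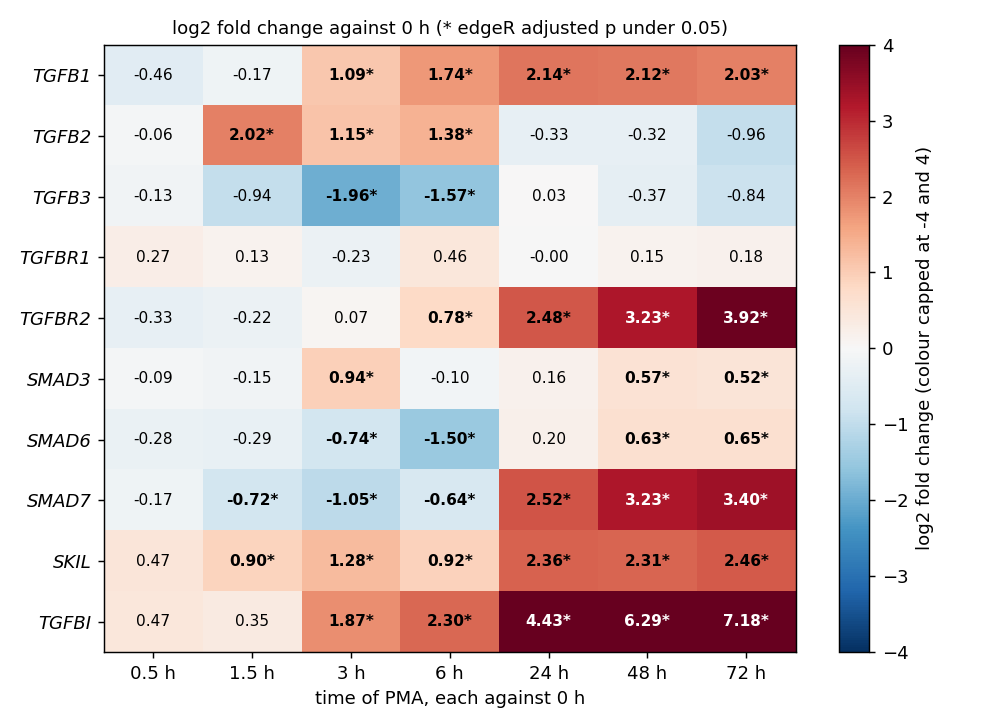
Log2 fold change of each gene (rows) against 0 h at each later time point (columns), with the colour capped at -4 and 4 and an asterisk on values with an edgeR adjusted p under 0.05. TGFB1, TGFBR2, SMAD7, SKIL and TGFBI are called higher at 24, 48 and 72 h, TGFB2 and TGFB3 are called at early time points in opposite directions, and TGFBR1 is called at none.

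Between neighbouring time points, most of the called steps fell between 6 and 48 h. From 6 to 24 h, 7 of the 10 genes were higher and TGFB2 was lower, beside 56.6% of all genes (30.8% higher, 25.8% lower). The step of TGFB3 was not called by DESeq2 (adjusted p = 0.0601), nor without replicate 1 (adjusted p = 0.11) or replicate 2 (adjusted p = 0.0927) of 6 h or replicate 2 of 24 h (adjusted p = 0.213). From 24 to 48 h SMAD3, SMAD6, SMAD7, TGFBI and TGFBR2 were higher, beside 15% of all genes (8.88% higher, 6.12% lower). The SMAD6 step was lost without any 1 of its 4 libraries (adjusted p = 0.0939 to 0.268) and with counts made from TPM (adjusted p = 0.123). The TGFBR2 step was lost without either library of 48 h (adjusted p = 0.0934 and 0.0618) or replicate 2 of 24 h, and the SMAD3 step with counts made from TPM (adjusted p = 0.0518). No gene of the 10 was called between 48 and 72 h, where 1.47% of all genes were (1.14% higher, 0.325% lower). Before adjustment TGFBI and TGFBR2 were under 0.05 there in edgeR, and DESeq2 called 0. Of the earlier steps, TGFB2 was higher and SMAD7 lower from 0.5 to 1.5 h, beside 5.77% of all genes (4.11% higher, 1.67% lower). That of SMAD7 was lost without any 1 of its 4 libraries (adjusted p = 0.0507 to 0.203), and that of TGFB2 without either library of 0.5 h (adjusted p = 0.0713 and 0.0509) or replicate 1 of 1.5 h (adjusted p = 0.0692). From 1.5 to 3 h TGFB1 and SMAD3 were higher and SMAD6 lower, beside 25.1% (13% higher, 12.1% lower). With library totals 2 were higher and 3 lower, beside 1572 higher and 3847 lower of all 17559 genes. The SMAD6 step was lost without any 1 of its 4 libraries (adjusted p = 0.0719 to 0.119). From 3 to 6 h TGFBR1, TGFBR2 and SMAD7 were higher and SMAD3 and SMAD6 lower, beside 41.2% (19% higher, 22.1% lower). The TGFBR2 step was called in 7 of 15 alternative settings, not by DESeq2 (adjusted p = 0.111), and was lost without either library of 6 h (adjusted p = 0.0684 and 0.117) or replicate 2 of 3 h (adjusted p = 0.145). The SMAD7 step was called in 10 of 15, and was lost with counts made from TPM (log2 0.23, adjusted p = 0.27), with only these time points fitted (adjusted p = 0.145), and without replicate 2 of 3 h (adjusted p = 0.147) or of 6 h (adjusted p = 0.193).

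For 4 of the genes, the RefSeq window (assembly GRCh38.p14) from 250 bases before to 50 after a start site lay within 11 nt of the 5′ end of the transcript that holds the largest share of the gene's reads, and held a match to a motif searched for. They are shown for that reason, so that each shown window holds a match was fixed by the choice. SMAD7 and TGFBI, which also rose late, are not among them, their windows lying 1087 and 93 nt away. The transcript used held 38.8% of the reads of SKIL and 51.2% of those of TGFBR2. Capitals mark the matches; coordinates and strand follow each name.
TGFB1, chr19:41353873-41354172, minus strand: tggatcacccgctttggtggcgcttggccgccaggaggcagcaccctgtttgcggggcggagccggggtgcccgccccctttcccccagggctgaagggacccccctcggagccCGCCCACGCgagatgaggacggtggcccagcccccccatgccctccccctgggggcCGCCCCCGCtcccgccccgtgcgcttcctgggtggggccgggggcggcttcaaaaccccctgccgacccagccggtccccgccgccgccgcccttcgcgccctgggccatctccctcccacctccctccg
TGFBR2, chr3:30606351-30606650, plus strand: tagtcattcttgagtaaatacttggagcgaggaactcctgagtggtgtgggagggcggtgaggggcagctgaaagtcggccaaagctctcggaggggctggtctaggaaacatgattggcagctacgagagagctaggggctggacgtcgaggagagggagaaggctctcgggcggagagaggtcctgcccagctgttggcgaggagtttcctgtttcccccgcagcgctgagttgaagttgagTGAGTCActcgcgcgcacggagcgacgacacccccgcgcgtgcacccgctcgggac
SMAD6, chr15:66701986-66702285, plus strand: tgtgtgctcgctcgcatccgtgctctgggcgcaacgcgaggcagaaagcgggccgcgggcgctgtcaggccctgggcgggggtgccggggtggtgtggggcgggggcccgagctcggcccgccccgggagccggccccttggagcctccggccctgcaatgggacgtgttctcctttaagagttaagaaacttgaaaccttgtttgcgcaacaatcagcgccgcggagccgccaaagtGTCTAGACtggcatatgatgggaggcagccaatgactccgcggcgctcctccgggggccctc
SKIL, chr3:170357465-170357764, plus strand: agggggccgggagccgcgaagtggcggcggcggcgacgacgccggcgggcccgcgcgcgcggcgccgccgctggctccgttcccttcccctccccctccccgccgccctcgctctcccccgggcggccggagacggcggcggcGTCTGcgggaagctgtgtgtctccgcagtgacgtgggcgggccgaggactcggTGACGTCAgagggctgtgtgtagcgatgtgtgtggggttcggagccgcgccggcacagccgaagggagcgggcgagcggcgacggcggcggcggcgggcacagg
The motifs were searched as exact letters on both strands, and no match of one overlapped a match of another in these windows. The palindrome GTCTAGAC, a known binding sequence of SMAD3 and SMAD4, starts 12 bases before the start site in the SMAD6 window and is in 0.202% of the 35116 RefSeq windows of this length. The shorter SMAD box CAGAC is in 45.3% of them, and in the windows of 5 of the 10 genes. The AP-1 site TGACTCA lies on the other strand of the TGFBR2 window, 6 bases before the start site (4.95% of windows). The TGFB1 window has an EGR site, GCGTGGGCG or GCGGGGGCG, at both -136 and -80 on the other strand (5.77% of windows), and the SKIL window has the cyclic AMP response element TGACGTCA at -54 (1.85%). These are matches of letters, and no binding was measured.

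Among the 3 TGFB ligands, TGFB1 was the most abundant and the one that rose and stayed up. TGFB1 (ENSG00000105329; GRCh38 chromosome 19, 41301587 to 41353911) encodes the ligand that platelets and blood cells mostly make. Its 2 libraries, replicate 1 before replicate 2, held 103 and 163 CPM at 0 h, then 90.7 and 102 at 0.5 h, then 113 and 123 at 1.5 h, then 294 and 271 at 3 h. The 6 h libraries held 386 and 501 CPM, those of 24 h 489 and 677, those of 48 h 490 and 662, and those of 72 h 403 and 680. From 3 h on, every library lay above both 0 h libraries. The rise was 2.13-fold at 3 h (log2 fold change 1.09 ± 0.26 SE, adjusted p = 0.00395), 3.34-fold at 6 h and 4.40-fold at 24 h (2.14 ± 0.27, adjusted p = 1.18e-05, edgeR). It then stayed level, at 4.34-fold at 48 h and 4.08-fold at 72 h, and no step after 3 h was called (6 against 3 h, adjusted p = 0.0585).

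The 2 libraries of TGFB1 differed by 0.66 on the log2 scale at 0 h and by 0.76 at 72 h, replicate 2 being higher both times. Over all genes, the difference between replicates went with the GC fraction of a gene's transcripts, with a correlation across genes, which are not independent replicates, of 0.74 at 0 h and 0.57 at 72 h. TGFB1 has a GC fraction of 0.634, and the AT-rich SKIL (0.372) and TGFBR1 (0.388) differed the other way at 0 h, by -0.69 and -0.62. The early contrasts with 0 h were tied to GC as well, at 0.5 h with a correlation of -0.77 and at 1.5 h with -0.43, and the values of these 3 genes at 0.5 and 1.5 h share the 0 h pair; the part of GC in them was not tested beyond a fit with each library's GC trend removed. In that fit the log2 fold change of TGFB1 at 0.5 h was -0.03 in place of -0.46, and at 1.5 h 0.25 in place of -0.17, with no call in either fit, while the rise at 72 h was 2.35 in place of 2.03.

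TGFB1 reads came almost wholly from its protein-coding transcript TGFB1-201, at 99.1% over all libraries. The gene's span overlaps 4 genes on the opposite strand, among them HNRNPUL1 and CCDC97, but the exons of TGFB1-201 share 0 bases with them in GENCODE 29.

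TGFB2 was briefly higher at a very low level, and TGFB3 was briefly lower. TGFB2 (ENSG00000092969; chromosome 1, 218346235 to 218444619) held 0.368 and 0.322 CPM at 0 h, then 0.317 and 0.344 at 0.5 h, then 1.65 and 1.16 at 1.5 h, then 0.576 and 0.979 at 3 h. It held 0.854 and 0.956 CPM at 6 h, and 0.0937 to 0.311 CPM in the 6 later libraries. All 6 libraries of 1.5, 3 and 6 h were above every other library of the course. From 22 reads at 0 h to 98 at 1.5 h the ratio was 4.09 (exact 95% counting interval 2.56 to 6.82), and edgeR gave a log2 fold change of 2.02 ± 0.39 (adjusted p = 0.00384). The rises at 3 h (1.15 ± 0.41, adjusted p = 0.0353) and at 6 h (1.38 ± 0.41, adjusted p = 0.00994) were less secure: the first was called in 4 of 14 alternative settings, not by DESeq2 (adjusted p = 0.12), and without replicate 2 of 3 h it was 0.73 (adjusted p = 0.253). It also lost its call without replicate 1 (adjusted p = 0.0829) or replicate 2 (adjusted p = 0.147) of 0 h. The call at 6 h was lost without replicate 2 of 0 h (adjusted p = 0.057) or of 6 h (adjusted p = 0.0575) and with library totals (adjusted p = 0.052). With counts made from TPM the values were 0.38 at 3 h (adjusted p = 0.587) and 0.55 at 6 h (adjusted p = 0.366). From 6 to 24 h TGFB2 fell by 1.71 on the log2 scale (adjusted p = 0.00299), and at 72 h it was 5.08-fold lower than at 6 h (adjusted p = 0.000512). Its leading transcript shares 1371 exonic bases with TGFB2-OT1, so the reads of these genes may not be fully separable.

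TGFB3 (ENSG00000119699; chromosome 14, 75958099 to 75982991) held 0.460 and 0.933 CPM at 0 h, then 0.528 and 0.745 at 0.5 h, then 0.364 and 0.357 at 1.5 h, then 0.274 and 0.0652 at 3 h, then 0.213 and 0.248 at 6 h. The 24 h libraries were back at 0.516 and 0.872 CPM, those of 48 h had 0.427 and 0.641, and those of 72 h 0.307 and 0.469. The 4 libraries of 3 and 6 h were below every other library. These levels rest on 12 reads in all at 3 h and 12 at 6 h, against 44 at 0 h. The fall was 3.88-fold at 3 h (log2 -1.96 ± 0.57, adjusted p = 0.0125) and 2.97-fold at 6 h (-1.57 ± 0.57, adjusted p = 0.0293). Both calls were lost without replicate 2 of 0 h (log2 -1.37, adjusted p = 0.137 at 3 h; log2 -0.98, adjusted p = 0.248 at 6 h), the 3 h call without replicate 2 of 3 h (adjusted p = 0.0979), and the 6 h call without replicate 1 (adjusted p = 0.119) or replicate 2 (adjusted p = 0.0989) of 6 h and with DESeq2 (adjusted p = 0.067). At 24 h and after no difference from 0 h was called. The leading transcript shares 163 exonic bases with the antisense gene TGFB3-AS1, whose reads may not be separable.

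Per length, TGFB1 was the highest of the 3 TGFB ligands at each time point, with 82.7 ± 17.6 TPM (SD, n = 2) at 0 h and 345 ± 115 TPM at 72 h. TGFB3 had 0.761 ± 0.280 TPM at 0 h and 0.692 ± 0.322 TPM at 72 h, and TGFB2 had 0.155 ± 0.0724 TPM and 0.0462 ± 0.0297 TPM. At 6 h their order was turned, with TGFB2 at 0.187 ± 0.00291 TPM and TGFB3 at 0.115 ± 0.00167 TPM, while at 1.5 and 3 h the libraries of the pair overlapped.

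**Figure D2:**
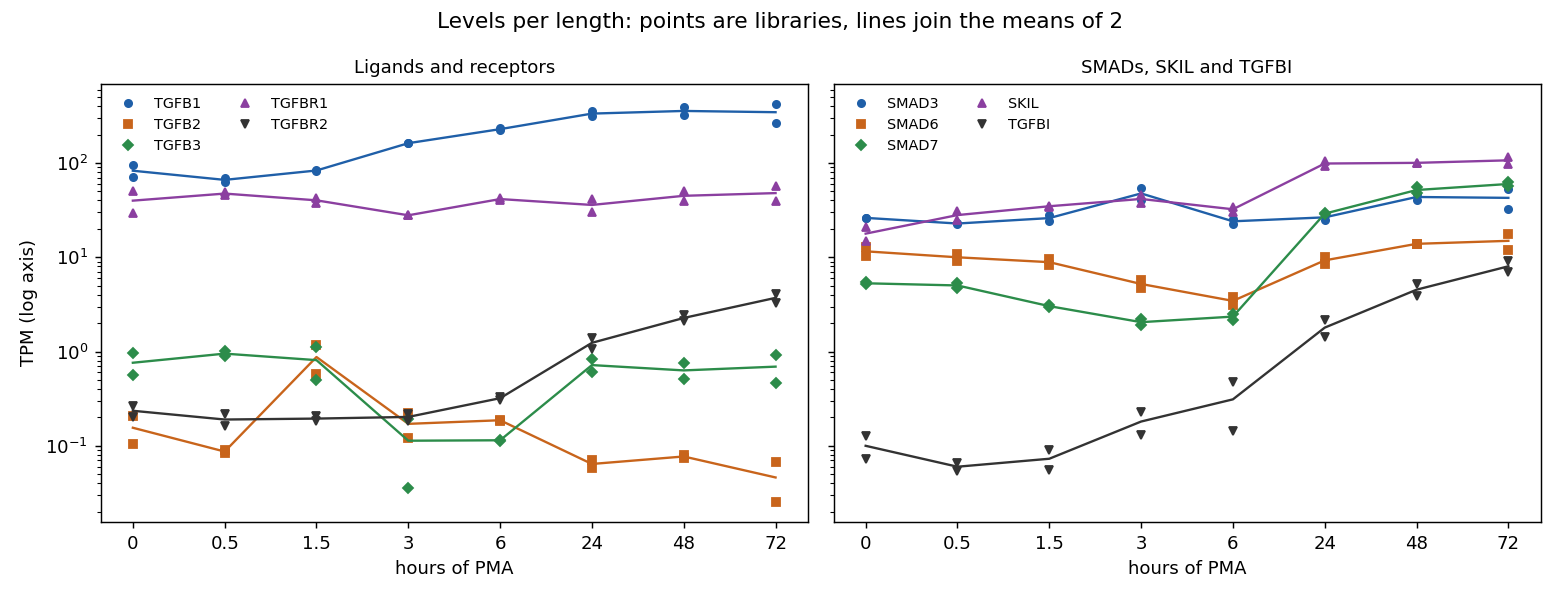
TPM (log axis) of the 3 ligands and 2 receptors (left) and of the SMADs, SKIL and TGFBI (right) against hours of PMA, with a point for each library and a line through the mean of 2. TGFB1 lies above TGFB2 and TGFB3 at each time point. The mean of TGFBR2 climbs from 0.235 TPM at 0 h to 3.71 TPM at 72 h. It lies below the mean of TGFBR1, which stays between 27.9 and 47.9 TPM.

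The receptors differed from each other in level and in course. TGFBR1 showed no called difference from 0 h in the main test, and TGFBR2 rose from 6 h to 72 h. TGFBR1 (ENSG00000106799; chromosome 9, 99104038 to 99154192), the type I receptor kinase, held 125 and 81.1 CPM at 0 h, then 134 and 115 at 0.5 h, then 115 and 111 at 1.5 h, then 97.9 and 77.9 at 3 h. The 6 h libraries held 154 and 130 CPM, those of 24 h 114 and 91.6, those of 48 h 124 and 105, and those of 72 h 146 and 87.9. The libraries of 0 h and of 72 h overlapped. Replicate 2 was lower than replicate 1 at each time point. The rise at 6 h (log2 0.46, adjusted p = 0.11 in the main test) was called in 4 of 15 alternative settings. Among these were a replicate block (0.48, adjusted p = 0.00751, edgeR) and no filter on low counts (0.45, adjusted p = 0.000934, edgeR). The fall from 6 to 24 h (-0.46, adjusted p = 0.106 in the main test) was called in 5 of 15. At 72 h the log2 fold change was 0.18, with a 95% interval from -0.32 to 0.68 (adjusted p = 0.515), so changes of those sizes are within the error. The step from 3 to 6 h was called (1.61-fold, adjusted p = 0.0297), but not with library totals as the scaling (adjusted p = 0.0511), nor without replicate 2 of 3 h (adjusted p = 0.18) or replicate 1 of 6 h (adjusted p = 0.159).

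TGFBR2 (ENSG00000163513; chromosome 3, 30606502 to 30694142), the ligand-binding type II receptor, was low in untreated cells, with 25 and 20 reads. It held 0.767 and 0.644 CPM at 0 h, then 0.634 and 0.487 at 0.5 h, then 0.616 and 0.594 at 1.5 h, then 0.822 and 0.652 at 3 h. The 6 h libraries held 1.20 and 1.24 CPM, those of 24 h 4.26 and 3.67, those of 48 h 6.86 and 6.47, and those of 72 h 11.9 and 9.56. Both libraries of each time point from 6 h on were above both of the time point before. The rise was 5.58-fold at 24 h (log2 2.48 ± 0.21, adjusted p = 3.09e-07), 9.39-fold at 48 h and 15.2-fold at 72 h (3.92 ± 0.21, adjusted p = 2.45e-09). At 6 h it was 1.72-fold (adjusted p = 0.0114), a call lost with library totals as the scaling (log2 0.42, adjusted p = 0.191), with DESeq2 (adjusted p = 0.0528), with only these time points fitted (adjusted p = 0.0502), and without replicate 2 of 0 h (adjusted p = 0.0814) or of 6 h (adjusted p = 0.0621). From 48 to 72 h it gained 0.69 on the log2 scale (adjusted p = 0.0781).

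Per length TGFBR1 exceeded TGFBR2 in each library, and the gap narrowed from 24 h on. The ratio of TGFBR1 to TGFBR2 in TPM was 167 ± 29.3 (SD, n = 2) at 0 h, 253 ± 35.5 at 0.5 h and 129 ± 4.36 at 6 h. It was 28.9 ± 0.471 for 24 h, 19.7 ± 1.04 for 48 h and 12.8 ± 1.41 for 72 h. Reads of TGFBR2 were split between its 2 annotated coding transcripts in ways that swapped between replicates, from all on one to all on the other at 0.5 and 1.5 h, and so were read as a sum.

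SMAD3, the receptor-activated SMAD, made a single sharp peak at 3 h and a smaller late rise. SMAD3 (ENSG00000166949; chromosome 15, 67063763 to 67195195) held 53.4 and 59.0 CPM at 0 h, then 53.8 and 51.7 at 0.5 h, then 51.1 and 50.6 at 1.5 h. Both 3 h libraries held 108 CPM. The 6 h libraries were back at 50.9 and 54.0 CPM, those of 24 h had 63.9 and 61.8, those of 48 h 82.4 and 84.6, and those of 72 h 78.3 and 83.4. The 3 h libraries were above all others, and those of 48 and 72 h above the rest. The peak was 1.92-fold above 0 h (log2 0.94 ± 0.08, adjusted p = 5.66e-07), with a 2.12-fold step up from 1.5 h (adjusted p = 3.03e-07) and a 2.06-fold step down to 6 h (adjusted p = 2.77e-07). The late level was 1.49-fold above 0 h at 48 h (adjusted p = 3.39e-05) and 1.44-fold at 72 h (adjusted p = 6.39e-05). The step from 6 to 24 h, 0.26 on the log2 scale (adjusted p = 0.0133), is not secure: without replicate 1 of 6 h it was 0.20 (adjusted p = 0.129), it was not called without replicate 1 (adjusted p = 0.0672) or replicate 2 (adjusted p = 0.0745) of 24 h, and with counts made from TPM it was -0.05 (adjusted p = 0.816).

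The inhibitory SMADs both fell early and rose late. SMAD7 (ENSG00000101665; chromosome 18, 48919853 to 48952052), which binds the activated type I receptor and brings ubiquitin ligases to it, held 9.73 and 10.2 CPM at 0 h, then 9.14 and 8.60 at 0.5 h, then 5.71 and 6.39 at 1.5 h, then 5.17 and 4.44 at 3 h, then 5.89 and 6.87 at 6 h. The 24 h libraries held 53.5 and 61.3 CPM, those of 48 h 91.3 and 95.8, and those of 72 h 97.9 and 113. The 6 libraries of 1.5 to 6 h were below, and the 6 of 24 to 72 h above, all 4 libraries of 0 and 0.5 h. SMAD7 was 1.65-fold lower at 1.5 h (adjusted p = 0.00202), 2.08-fold lower at 3 h (log2 -1.05 ± 0.13, adjusted p = 1.8e-05) and 1.56-fold lower at 6 h (adjusted p = 0.00065). It was then 5.76-fold higher at 24 h (adjusted p = 6.64e-10), 9.37-fold at 48 h and 10.6-fold at 72 h (3.40 ± 0.12, adjusted p = 3.19e-11). Its step from 6 to 24 h was 8.98-fold (adjusted p = 5.21e-10). The coding transcript SMAD7-201 had 7.84 ± 0.160 CPM (SD, n = 2) at 0 h and 78.6 ± 13.0 CPM at 72 h, a ratio of 10.0, and its transcript with a retained intron had 1.57 ± 0.186 and 19.3 ± 2.23 CPM, a ratio of 12.2.

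SMAD6 (ENSG00000137834; chromosome 15, 66702228 to 66782848), best known as an inhibitor in the related BMP branch, held 16.4 and 19.7 CPM at 0 h, then 13.5 and 16.2 at 0.5 h, then 15.0 and 14.6 at 1.5 h, then 10.6 and 11.0 at 3 h, then 6.70 and 6.09 at 6 h. The 24 h libraries held 20.2 and 21.1 CPM, those of 48 h 26.4 and 29.5, and those of 72 h 25.3 and 31.3. Both 6 h libraries were the lowest of the course, whereas SMAD7 was lowest at 3 h. The fall was 1.67-fold at 3 h (adjusted p = 0.000655) and 2.82-fold at 6 h (log2 -1.50 ± 0.14, adjusted p = 8.22e-07). A step of 3.24-fold followed from 6 to 24 h (adjusted p = 4.34e-07), and the late level was 1.55-fold above 0 h at 48 h (adjusted p = 0.00119) and 1.57-fold at 72 h (0.65 ± 0.13, adjusted p = 0.000888). With counts made from TPM, which weigh reads by transcript length, the late calls were lost, at log2 0.25 at 48 h (adjusted p = 0.247) and 0.33 at 72 h (adjusted p = 0.123).

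The transcripts of SMAD6 did not move alike late in the course. The coding SMAD6-201 (3828 nt in the files) had 12.7 ± 1.85 CPM (SD, n = 2) at 0 h, 3.85 ± 0.0669 CPM at 6 h and 17.0 ± 3.05 CPM at 72 h, a ratio to 0 h of 1.34. SMAD6-205, a longer transcript of 5198 nt annotated as not coding, had 3.93 ± 0.0428 CPM, then 1.96 ± 0.423 CPM and then 10.0 ± 0.514 CPM, a ratio of 2.55. Its share of the SMAD6 reads was 23.9 and 20.1% at 0 h, then 33.7 and 27.5% at 6 h, then 40.3 and 35.2% at 24 h, then 38.3 and 33.2% at 72 h. All 6 libraries from 24 h on were above all 8 libraries of 0 to 3 h. The 95% Wilson interval was 20.4 to 27.6% in replicate 1 of 0 h and 35.1 to 41.4% in replicate 1 of 72 h, for counting error only; the division of reads between transcripts is itself an estimate of the counting program.

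**Figure D3:**
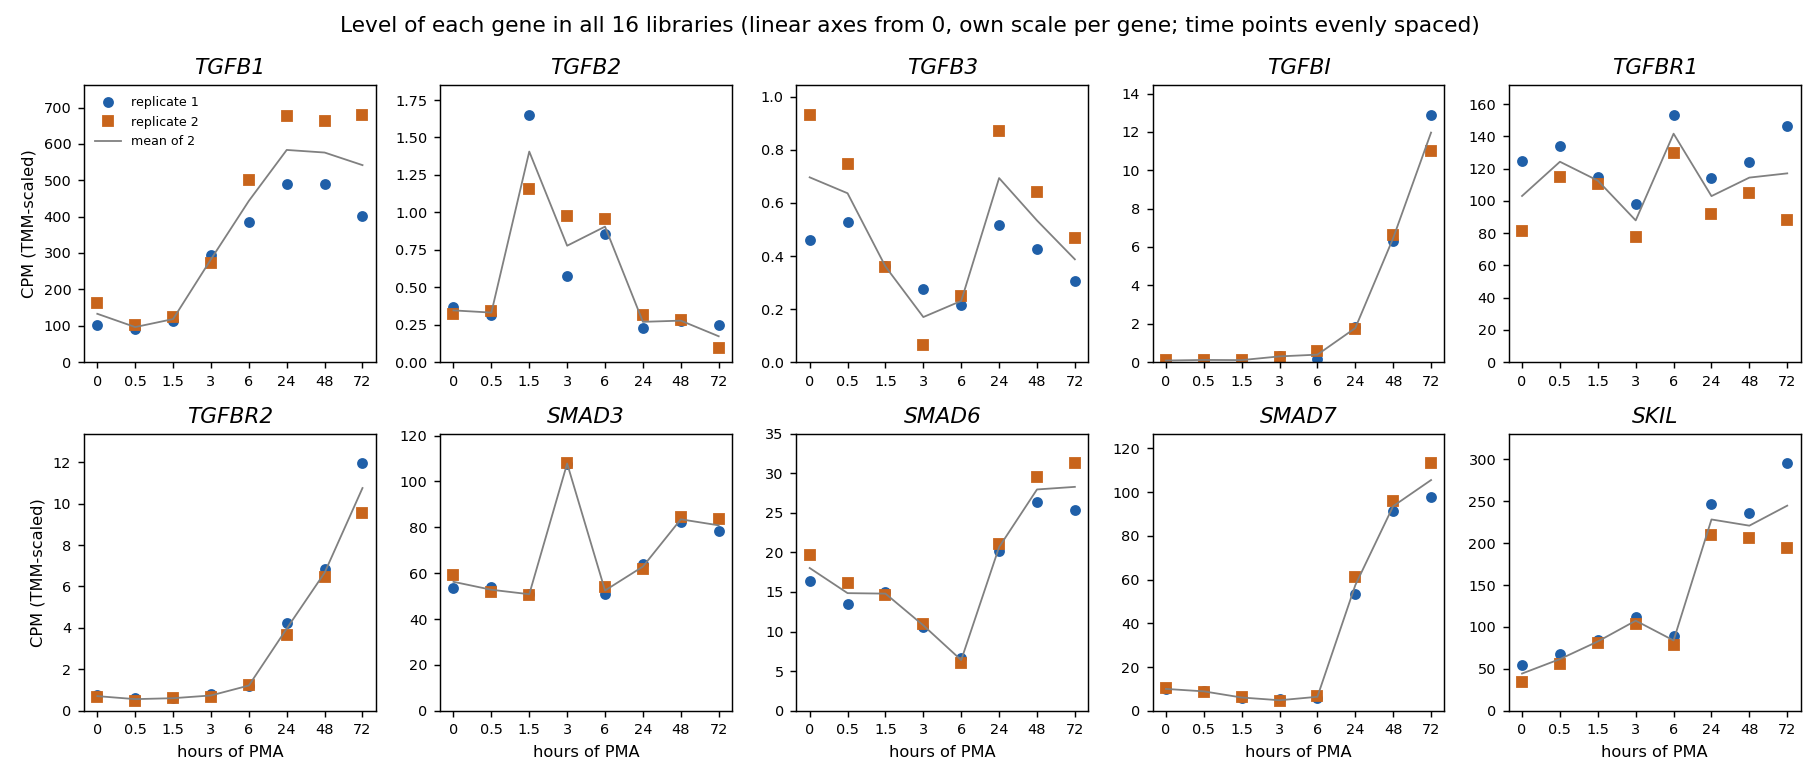
CPM of each gene in all 16 libraries (circles replicate 1, squares replicate 2, grey line the mean of 2) on linear axes that start at 0, with time points evenly spaced. SMAD6 and SMAD7 dip before they rise, SMAD3 has a single point of time at 108 CPM, and the replicates of TGFB1, TGFBR1 and SKIL lie apart at 0 and 72 h.

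SKIL, the nuclear repressor, rose early and again after 6 h, with no early fall. SKIL (ENSG00000136603; chromosome 3, 170357678 to 170396835) held 54.7 and 34.0 CPM at 0 h, then 67.4 and 55.9 at 0.5 h, then 84.9 and 80.4 at 1.5 h, then 112 and 103 at 3 h. The 6 h libraries held 89.6 and 78.1 CPM, those of 24 h 246 and 210.2, those of 48 h 236 and 206, and those of 72 h 295 and 194. Every library after 0 h was above both 0 h libraries. SKIL was 1.86-fold higher at 1.5 h (log2 0.90 ± 0.21, adjusted p = 0.0129), 2.42-fold at 3 h (adjusted p = 0.000288) and 1.89-fold at 6 h (adjusted p = 0.0021). The 1.5 h value was 0.59 without replicate 2 of 0 h (adjusted p = 0.143), and the call was also lost without replicate 1 (adjusted p = 0.0744) or replicate 2 (adjusted p = 0.0588) of 1.5 h. A 2.72-fold step followed from 6 to 24 h (adjusted p = 6.59e-05), to 5.14-fold above 0 h at 24 h and 5.51-fold at 72 h (2.46 ± 0.22, adjusted p = 3.97e-07).

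The share of SKIL reads on its shorter coding transcripts, of 2702 and 2757 nt, ranged from 18.0 to 27.6% in the 8 libraries of replicate 1 and 29.2 to 44.5% in those of replicate 2. Lower fragment lengths went with replicate 1: the gap between a transcript's length and its effective length was 210 to 221 nt there, and 229.7 to 248.6 nt in replicate 2 except for 199 nt at 0 h. The part of fragment length in this share was not tested. Within replicate 1 these transcripts went from 10.5 to 56.2 CPM between 0 and 72 h, and those of 7155 and 7182 nt from 43.1 to 231 CPM. Within replicate 2 the values were 9.94 to 86.3 CPM and 22.8 to 102 CPM, so both length classes were higher at 72 h in both replicates.

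TGFBI, a secreted matrix protein named for its induction by TGF-beta, went from nearly no reads to a moderate level. TGFBI (ENSG00000120708; chromosome 5, 136028895 to 136063818) had 1 and 4 reads at 0 h, which stand for 0.0307 and 0.129 CPM. It held 0.106 and 0.115 CPM at 0.5 h, then 0.0840 and 0.119 at 1.5 h, then 0.329 and 0.261 at 3 h, then 0.171 and 0.602 at 6 h. The 24 h libraries held 1.84 and 1.70 CPM, those of 48 h 6.29 and 6.64, and those of 72 h 12.9 and 11.0. From 24 h on, both libraries of a time point lay above both of the time point before. Because the 0 h group had 5 reads in all, the size of the rise is uncertain: the ratio of depth-scaled reads was 22.4 at 24 h (exact 95% counting interval 9.35 to 69.9), 82.3 at 48 h (35.0 to 255) and 153 at 72 h (65.3 to 473). The edgeR calls at these times had adjusted p = 2.79e-06, 3.48e-08 and 6.83e-09, and between 24 and 48 h TGFBI rose 3.65-fold (adjusted p = 0.000627). The calls at 3 h (adjusted p = 0.0257) and 6 h (adjusted p = 0.00499) rest on 20 and 21 reads. The 3 h call was lost without replicate 1 of 0 h (adjusted p = 0.178) or of 3 h (adjusted p = 0.111), and the 6 h call without replicate 1 of 0 h (adjusted p = 0.0516) or replicate 2 of 6 h (adjusted p = 0.364).

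TGFBI and the sum of the 3 fibroblast markers were both low to 6 h and higher from 24 h on, when the sum was 121 to 262 CPM. COL1A1, itself a known TGF-beta target, made most of that sum and went from 3.47 CPM at 0 h to 207 CPM at 72 h, and COL1A2 from 6.11 to 17.4 CPM. DCN had 2.35 CPM at 0 h against a lower 1.47 CPM at 72 h. The part of other cell types in the TGFBI level was not tested.

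Set directly against 6 h, 6 of the 10 genes were higher at 72 h and TGFB2 was lower, beside 57.2% of all genes (31.6% higher, 25.6% lower). The differences were 4.04 ± 0.13 on the log2 scale for SMAD7 (adjusted p = 3.08e-11), 2.15 ± 0.15 for SMAD6 (adjusted p = 3.7e-08), 3.14 ± 0.20 for TGFBR2 (adjusted p = 2.64e-08) and 4.89 ± 0.35 for TGFBI (adjusted p = 6.84e-08). SKIL differed by 1.55 ± 0.21 (adjusted p = 3.17e-05) and SMAD3 by 0.62 ± 0.08 (adjusted p = 1.56e-05). TGFB1, which was already 3.34-fold above 0 h at 6 h, differed by 0.29 ± 0.26 (adjusted p = 0.35). The sets called at 3 h and at 72 h overlapped in part. TGFB1, SKIL, SMAD3 and TGFBI were called higher at both times, TGFBI at 3 h on 20 reads. SMAD6 and SMAD7 were called lower at the first and higher at the second. Of these times, TGFB2 (higher) and TGFB3 (lower) were called at 3 h alone, and TGFBR2 (higher) at 72 h alone.

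Per length at 72 h, TGFB1 (345 TPM) was the highest of the 10, followed by SKIL at 107 ± 13.9 TPM (SD, n = 2), SMAD7 at 59.9 ± 3.78, TGFBR1 at 47.9 ± 12.6, SMAD3 at 42.6 ± 14.8, SMAD6 at 14.9 ± 4.09, TGFBI at 8.02 ± 1.51 and TGFBR2 at 3.71 ± 0.572, with TGFB3 and TGFB2 last. The libraries of TGFBR1 and SMAD3 overlapped, and the lower SMAD7 library, at 57.2 TPM, was just above the higher TGFBR1 library, at 56.8 TPM. At 0 h SMAD7, at 5.30 ± 0.150 TPM, had stood below SMAD3 (26.2 ± 0.319) and below SMAD6 (11.6 ± 1.73), so the order of the inhibitory SMADs was turned round during the course.

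Among 11268 to 11269 other genes averaging 5 CPM or more over the libraries, those with the log2 CPM most like each gene over the 16 libraries, which share the 8 time points, were named by Pearson's r, as a description. SMAD7 was most like MLKL (0.99) and KIF21B (0.99), TGFBR2 like TSPAN9 (0.99) and TSPAN5 (0.99), and TGFB1 like SOCS1 (0.99) and SEPTIN5 (0.99). SMAD6 was most like TMEM63A (0.98) and CTIF (0.98), SKIL like EXOC6B (0.98) and TMEM263 (0.98), TGFBI like TPP1 (0.99) and TERF2 (0.99). TGFB2 resembled DUSP16 (0.93), TGFB3 resembled THAP7 (0.93), SMAD3 resembled SHOX2 (0.94) and TGFBR1 resembled PTAR1 (0.93).

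The rest of the pathway was read from 72 other genes of the TGF-beta superfamily, of which 61 were tested. Against 0 h, JUNB alone was called higher at 0.5 h (log2 1.62), beside 0.165% of all genes. At 1.5 h 9 were higher and 5 lower, beside 9.05 and 8.05% of all genes, and at 3 h 23 were higher and 8 lower, beside 21.5 and 20.5%. The 6 h count was 26 higher and 13 lower (27.8 and 29.4% of all genes), that of 24 h 30 and 9 (31.7 and 26.6%), and those of 48 and 72 h 36 and 8 (30.2 and 24.1% at 48 h). With library totals they were 8 and 7 at 1.5 h, then 22 and 16 at 3 h, then 28 and 15 at 24 h. Under that scaling, 1223 of all 17559 genes were higher and 2605 lower at 1.5 h. The numbers for all genes were 2356 and 6242 at 3 h, and 4165 and 6610 at 24 h. With TMM factors, 59.0% were called higher at 72 h, beside 31.7% of all genes, and the median log2 fold change of the list was 0.62. At 72 h 26.9% of all genes were called lower. Untested for low counts were 11 genes, among them CCN2, CDKN2B, NODAL and BMP4.

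**Figure D4:**
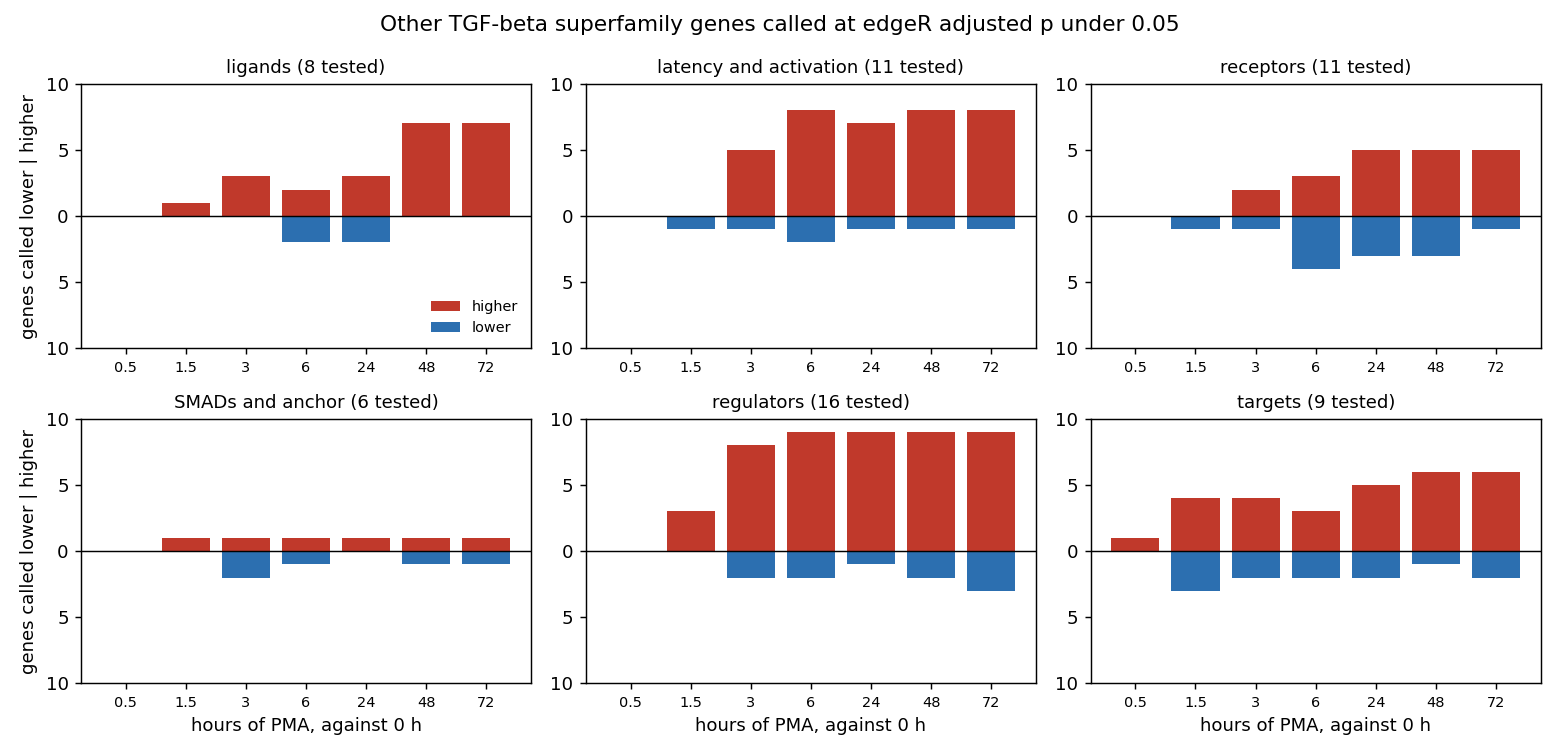
Number of genes called higher (red, up) or lower (blue, down) against 0 h by edgeR at an adjusted p under 0.05, in 6 groups of other TGF-beta superfamily genes, with the number tested in each title. Ligands and genes of latency and activation are called mostly higher at 48 and 72 h, and the group of SMADs has at most 1 gene higher and 2 lower at any time.

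Of 8 other ligands tested, 7 were higher at 72 h and none was lower, beside 31.7% of all genes higher and 26.9% lower. The largest change was in INHBA, which encodes the beta A subunit of activins: it had 8 reads at 0 h (0.184 and 0.0644 CPM), 151 and 167 CPM at 6 h, and 1322 and 1138 CPM at 72 h. The ratio of depth-scaled reads at 6 h was 1268 (exact 95% counting interval 643 to 2938), with adjusted p = 2.42e-12 in edgeR. BMP6 (log2 5.20 at 72 h), BMP2 (2.79) and GDF15 (1.25) were also called higher.

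Of 11 genes of latency and activation, which store the ligand in the matrix or release it, 8 were higher and 1 lower at 72 h (all genes, 31.7 and 26.9%). THBS1, whose protein can release active TGF-beta and which is also among the megakaryocyte markers above, had 3.53 and 3.54 CPM at 0 h, 146 and 152 CPM at 6 h, and 4916 and 4271 CPM at 72 h (log2 10.34 ± 0.23, adjusted p = 4.47e-13). LTBP1 and LTBP2, which bind latent TGF-beta, were higher by 4.24 and 4.40 on the log2 scale, LRRC32 (GARP), which holds it on the cell surface, by 3.99, and the integrin subunit ITGAV by 2.32. LTBP4 was the one called lower, at -1.37.

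Of 11 other receptors, 5 were higher and 1 lower at 72 h (all genes, 31.7 and 26.9%). ACVR1C (ALK7) went from 1.87 and 1.64 CPM at 0 h to 12.2 and 11.6 CPM at 6 h and 12.8 and 9.81 CPM at 72 h (2.68 ± 0.21, adjusted p = 1.08e-07). The activin type I receptor ACVR1B and ACVRL1 (ALK1) were also higher, the latter by 2.43, and ACVR2B was lower, at -0.78. Among 6 SMADs and their anchor, SMAD5 was higher (0.41) and the SMAD anchor ZFYVE9 (SARA) lower at 72 h, at 28.4 and 23.8 CPM against 37.7 and 36.4 CPM at 0 h (-0.50 ± 0.09, adjusted p = 0.000418). SMAD2 (-0.09) and SMAD4 (-0.27) were not called.

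Of 16 other regulators, 9 were higher and 3 lower at 72 h (all genes, 31.7 and 26.9%). BAMBI, a pseudoreceptor that dampens the pathway, peaked early: it had 13.0 and 14.7 CPM at 0 h, 131 and 112 CPM at 3 h, 154 and 161 CPM at 6 h, 36.4 and 39.1 CPM at 24 h, and 75.4 and 72.0 CPM at 72 h (6 h, 3.50 ± 0.11, adjusted p = 1.51e-11). SKI, the paralog of SKIL, was higher by 1.51 at 3 h and 0.46 at 72 h. Of 9 other target genes, 6 were higher and 2 lower at 72 h, beside the same shares of all genes. At 6 h, 3 of these 9 were higher and 2 lower, beside 27.8 and 29.4% of all genes. ID1 (-1.84) and ID3 (-1.30), targets of the BMP branch, were lower at that time.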

How the data were processed

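The 16 deposited tables give, per the file headers, an estimated count of reads (not whole) and TPM for each of 177456 Ensembl transcripts. The authors' TPM values are scaled within a library by effective length. The submitters' processing notes name Trim Galore 0.4.3, Salmon, HISAT2 2.1.0, SAMtools 1.9, deepTools 3.0.1, R 3.3.1, DESeq2 and DESeq 1.33.5, with builds hg19 and hg38 and no roles. Strand use in counting is not given in the sources used here.

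Transcripts were assigned to genes by identifier with GENCODE 29 (GRCh38). Of them 167027 (94.1%) matched, in 35052 genes, and 3.01 to 3.75% of a library's reads did not. Some transcript lengths in the files differ from GENCODE 29, so lengths are those of the files, and coordinates and exons those of GENCODE 29. Counts were summed per gene, rounded and tested with edgeR 4.0.16 in R 4.3.3 (TMM factors 0.854 to 1.139, filterByExpr, 1 fit of all 8 time points, quasi-likelihood F-test, Benjamini-Hochberg adjustment over 17559 genes within a contrast). The biological coefficient of variation shared by the genes was 0.123, on 8 residual degrees of freedom plus 5.28 from the prior, and fold changes used a prior count of 0.125. With 2 libraries a side, no exact permutation test of a single gene can pass the threshold, so the calls draw on the spread over all genes. The test was checked on simulated data. SDs have n = 2. Counting intervals, exact or Wilson at 95%, cover counting error alone, because PCR copies are not separate molecules.

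Alternatives were DESeq2 1.42.0, its size factors, library totals, other count filters, counts made from TPM, fits of the compared time points alone, removal of each library's GC trend, a replicate block with and without that removal, a stricter threshold and leaving out each library. Over all genes, replicate numbers paired the libraries weakly at most (14 of 28 correlations between time points were above 0.1, the highest 0.21). The main test has no block. For SKIL and TGFBR1, replicate 2 was lower than replicate 1 at each time point, and the main test counts such a shift as spread. The 10 genes, the wider list of 72 and the marker lists were chosen with earlier results of these data known. The wider-list genes given with values in each library are, by rule, the gene of each group with the largest called change at 6 h and at 72 h, averaging 5 CPM or more, and likeness named up to 2 genes a member. A gene of the target group that this rule would name is not reported here; the group's counts include it. The others named were chosen after their values were seen.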

Additional observations from a re-analysis of the deposited data

Results flagged for a closer look

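SMAD6 and SMAD7 were each called in opposite directions at 6 h and at 72 h against the same 0 h libraries, and the direct difference between 72 h and 6 h was called in both (edgeR). On the log2 scale that difference was 2.15 for SMAD6 (adjusted p = 3.7e-08) and 4.04 for SMAD7 (adjusted p = 3.08e-11). At 24 h SMAD6 was already 3.24-fold and SMAD7 8.98-fold above 6 h, of 4.43-fold and 16.5-fold at 72 h. Fresh medium was given after 24 and 48 h, and its part in the further difference from 24 to 72 h cannot be told apart from that of time.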

How the results depend on the processing

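For single genes, 2047 values were recomputed under the alternatives; 1890 kept their side of the threshold (85 of these turned sign while called in neither fit), 92 lost a call, 63 gained one and 2 turned. The 2 that turned were TGFB1 at 1.5 h, at 0.26 with a replicate block and the GC trend of each library removed (adjusted p = 0.0251, not called and -0.17 without), and SMAD3 for the 6-24 h step, at -0.054 with counts made from TPM (adjusted p = 0.816, against 0.26). The cause was not tested. Counts over all genes are not given for the alternatives below, other than library totals. A shift below may thus be one over all genes, and is not read as a result about these 10. The number of the 10 genes called moved most for steps between neighbours. Without a filter on low counts it was 2 at 0.5 h, 5 for the 1.5-3 h step and 1 for the 48-72 h step. With at least 10 counts in every library, which left 7 of the genes, it was 5 at 3 h, 5 at 6 h, 1 for the 0.5-1.5 h step and 5 for the 6-24 h step. At an adjusted p under 0.01 it was 5 at 3 h, 1 for the 0.5-1.5 h step, 2 for the 3-6 h step and 3 for the 24-48 h step. With counts made from TPM it was 6 for the 1.5-3 h step, 3 for the 3-6 h step and 3 for the 24-48 h step. With library totals it was 5 for the 1.5-3 h step, and with only the compared time points fitted 4 for the 0.5-1.5 h step and 5 for the 1.5-3 h step. With the GC trend removed it was 5 for the 1.5-3 h step and 1 for the 48-72 h step. The replicate block gave 1 for the 48-72 h step. With the GC trend removed as well, the block gave 4 for the 0.5-1.5 h step, 6 for the 1.5-3 h step and 2 for the 48-72 h step. Correlations between libraries of the same number ran from -0.12 to 0.21, with a median of 0.098. Some values did go with the number, such as the share of SKIL reads on its shorter coding transcripts. By effective length, the ratio of TGFBR1 to TGFBR2 was 212 at 1.5 h (206 in TPM) and 29.5 at 24 h (28.9).

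Leaving out each library in turn gave 0 to 1 call at 0.5 h, 4 to 8 at 6 h, 0 to 1 for the 0.5-1.5 h step, 2 to 5 for the 3-6 h step and 3 to 4 for the 24-48 h step. The fewest at 6 h came without replicate 2 of 6 h. In the wider list it gave 1 to 10 calls at 0.5 h, the most without replicate 1 of 0 h, and 7 to 21 at 1.5 h, from without replicate 1 of 1.5 h to without replicate 1 of 0 h. Where a time point is left with 1 library, its spread is assumed to be that of the others. Counts over all genes are not given for these fits either, so the ranges are not read as results about the 10 genes or the wider list. Against 0 h, the calls of TGFB1 and SKIL from 3 h on, of SMAD7 at every called time and of TGFBR2 and TGFBI from 24 h on held in all alternatives run. Depth limits the values of TGFB2 and TGFB3 at every time and of TGFBR2 and TGFBI up to 6 h, which rest on fewer than 100 reads a time point.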
